A study of Zea mays with 16 samples.

Results

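The array used for maize anthers carried 165 probes whose target name consisted of the letters NP and a run of digits, and their signals are described here in all 16 samples of the study. They were chosen by name alone, among the 42034 probes that were not control spots, and bore 163 different names, since NP1395955 and NP538720 were each carried by 2 probes. In gene indices built from expressed sequence tags, an NP name is a coding sequence taken from an annotated database entry, whereas a TC name is a tentative consensus assembled from the tags themselves. The files do not state this for the present design, and they pair NP names with neither a gene nor a sequence. None of the 163 names matched the RefSeq gene table of assembly Zm-B73-REFERENCE-NAM-5.0, so no gene, function or position can be given, and members are called by their NP names. The 27161 TC probes served for comparison.

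Whole maize anthers of 1.5 mm were sampled from field-grown plants of 2 male-sterile families. The groups were ms23 mutants (6 samples), fertile siblings of the ms23 family (2), ms32 mutants (6) and fertile siblings of the ms32 family (2); no allele, inbred background or treatment beyond the mutant locus is named. By their titles, the mutants have 3 numbered replicates and the siblings 1, each hybridised in both Cy3 and Cy5, while the submitters' design text counts 2 biological replicates where mutants meet siblings. The p-values therefore measure the spread between arrays, which may be technical.

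MS23 and MS32 are basic helix-loop-helix transcription factors that the tapetum needs, the innermost layer of the anther wall, which feeds the meiotic cells and later the pollen. In mutants of either gene that layer does not mature and pollen fails. RNA of a whole anther mixes the tapetum with the other wall layers and the meiocytes, and fewer cells of a type cannot be told apart from less RNA per cell. Of the anther and meiocyte markers looked for, the files give a name for AM1, a maize gene needed for entry into meiosis, and its 3 probes were well above background in all 16 samples.

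Each two-colour array held 2 samples. The 4 arrays of slide 1 set ms23 mutants against ms32 mutants, and the 4 arrays of slide 2 set each mutant against its own sibling, on 2 arrays per family with the dyes exchanged. Median spot intensities over all probes lay between 94 and 232.25 in the 16 samples. The NP probes were dimmer in every sample, with medians of 55 to 102, against 153 to 558 for the TC probes. None was saturated on any array and none was marked as an outlier spot.

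The NP probes lay near the dim end of the array. Their median brightness, the log2 signal averaged over dyes and arrays, was 6.345 (quartiles 6.049 and 7.076), and that of the TC probes was 8.182 (quartiles 6.573 and 10.26). A brightness under 7 was found for 72.7% of NP and 33.2% of TC probes, and one over 9 for 9.7% and 39.4%. Between the dimmest and the brightest NP probe the scale ran from 5.861 to 13.04. The offset of 50 added to each signal before the logarithm sets the lower end of this scale and makes the ratios of dim probes too small.

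**Figure D1:**
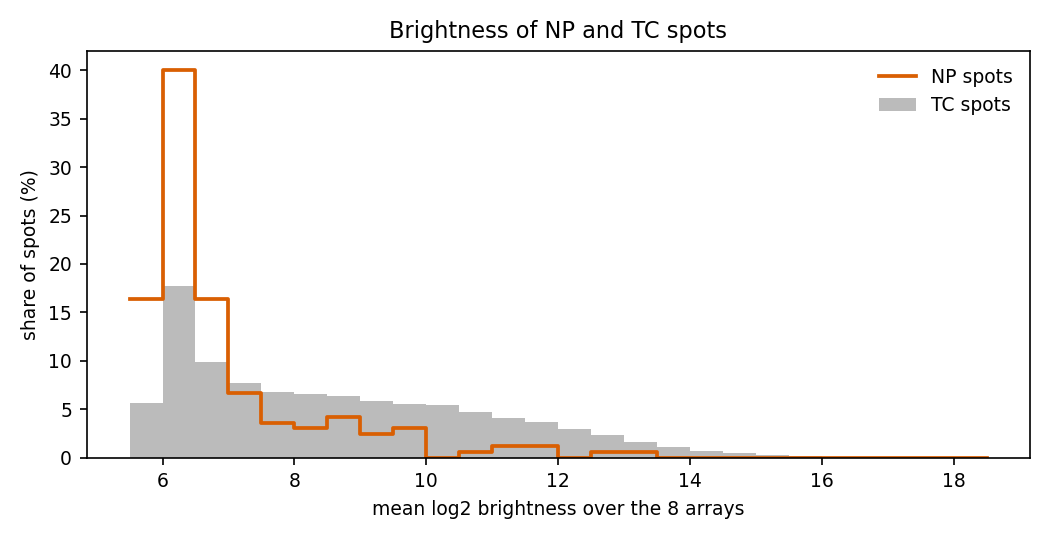
Distribution of mean log2 brightness over the 8 arrays (x axis, in steps of 0.5) as a share of spots in percent (y axis), for 165 NP probes (line) and 27161 TC probes (bars). The NP probes peak at the dim end, with a median of 6.345 against 8.182 for the TC probes.

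A probe counted as detected in a sample where the scanner software marked it as well above background in the dye that held the sample. In ms23 mutants the share of NP probes detected had a lowest value of 67.3% and a highest of 86.7% (mean of the 3 replicate numbers, each averaged over its dyes, 78.1% ± 7.44, SD, n = 3). In ms32 mutants it lay between 70.9% and 89.7% (76.3% ± 6.13, SD, n = 3). The siblings gave 69.7% and 75.2% (ms23) and 72.7% and 73.3% (ms32). All 4 sibling values fell inside the range of the ms23 mutants, so the groups overlapped.

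The highest shares came from arrays 3 and 4 of slide 1. The ms32 mutant sample with 89.7% also had the highest median spot intensity of the 16, 232.25, and the highest TC share, 97.1%. Each group held both dyes equally but the siblings were on slide 2 only, so slide and group overlap and no test between groups was made of these shares.

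The NP share was below the TC share in 16 of 16 samples, with means of 76.1% and 91.4%. When TC probes were weighted to the brightness of the NP probes, their mean share became 76.6%. The NP share was then the lower one in 8 of 16 samples, and the difference ran from -6.60 to 6.60 percentage points with a mean of -0.513. A floor was also set at the lowest processed signal of any probe marked well above background in a sample. At least 98.79% of NP probes were above it in each group's mean. A floor taken from the lowest of so many probes lets nearly all members through, so it cannot tell detected members from others.

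**Figure D2:**
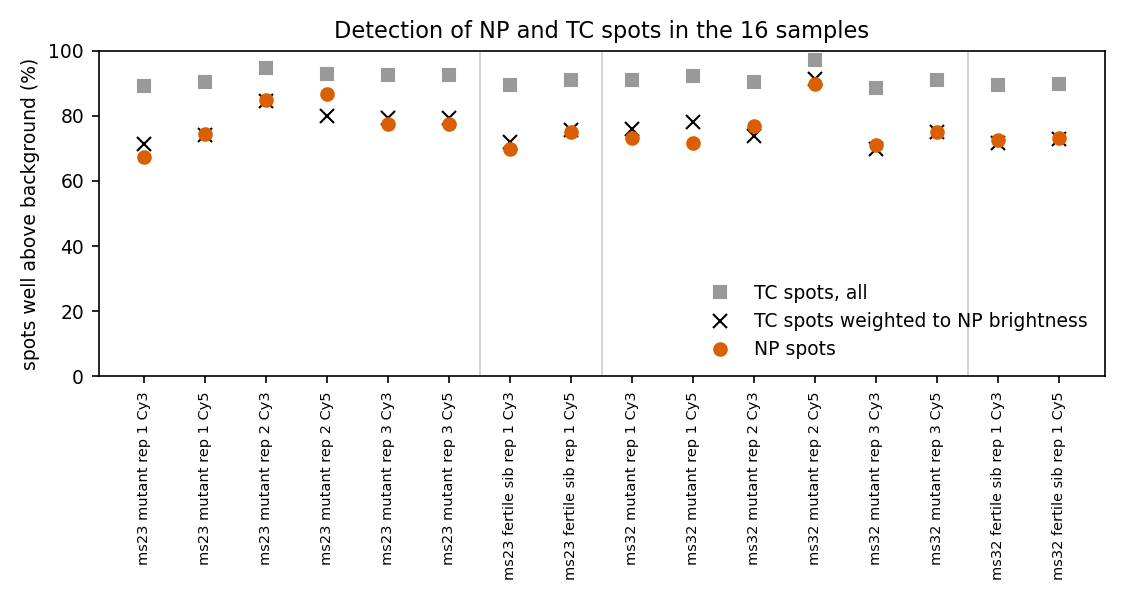
Share of spots well above background in percent (y axis) in each of the 16 samples (x axis, by group, replicate number and dye) for NP probes, all TC probes and TC probes weighted to NP brightness. NP shares run from 67.3% to 89.7%, below all TC probes in every sample and on both sides of the weighted TC probes.

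Detection in all 16 samples was seen for 77 NP probes, or 46.7%, beside 77.6% of TC probes and 46.5% of TC probes weighted to the same brightness. A further 85 were detected in 1 to 15 samples and 3 in no sample. The 55 dimmest members (brightness 5.86 to 6.12) had a mean share per sample of 38.4% and held no member detected throughout. The middle 55 had 90%, with 24 detected in all samples, and the brightest 55 (6.75 to 13.04) had 99.8%, with 53. The filter on dim probes let 148 NP probes into the tests. The other 17 had a brightness of 5.86 to 5.98 and were detected in 0 to 4 samples.

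The digits of the names were also set against brightness. Members with numbers under 100000 had a median brightness of 6.46 (n = 38), and those of 1000000 and over had 6.63 (n = 25). Between these lay ranges with medians of 6.18 (n = 36), 6.46 (n = 49) and 6.14 (n = 17). Members detected in all samples made up 35.3% to 55.1% of a range.

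The ms23 and ms32 mutants, compared directly on slide 1, differed at 24 of the 148 NP probes tested (limma, adjusted p under 0.05, n = 4 arrays). That is 16.2%, beside 20.6% of all probes tested and 15% of TC probes weighted to NP brightness. The NP share lay below that of the whole array and near that of equally bright TC probes. Higher in ms23 mutants were 14 members, or 9.46% beside 9.51% of all probes and 6.51% of the weighted TC probes, and lower were 10, or 6.76% beside 11.1% and 8.49%. An unadjusted p under 0.05 was reached by 51 members, or 34.5%, beside 34.1% of all probes and 26.5% of TC probes weighted to NP brightness. The 14 higher members had a median log2 ratio of 0.67 (0.29 to 2.06), and the 10 lower ones a median of -0.78 (-4.05 to -0.44). At least 2-fold differences were called for 5 members, or 3.38%, beside 7.33% of all probes and 4.7% of the weighted TC probes. Over all 148 members the median absolute log2 ratio was 0.12, the same as in TC probes weighted to that brightness and under the 0.18 of all probes.

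The count depended on how dye-swapped arrays were treated. With the 2 arrays of each dye swap averaged to 1 replicate, 12 members were called, 6 in each direction. With the block correlation estimated on ratios not turned to a common direction, a fit run first and set aside after its calls had been seen, 41 were called. Without array 3 of slide 1, 14 were called, 7 in each direction. Calls over all probes moved too, from 8227 to 4391, 11842 and 4459 under these settings in the same order. Median centring in place of loess gave 18 calls with a different split, 7 higher and 11 lower. All 24 members had the same sign of ratio on 4 of 4 arrays, the ratios from which the calls were made.

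Calls went with brightness among the members. None of the 38 tested members among the dimmest 55 was called, against 6 of the middle 55 and 18 of the brightest 55. This was not particular to NP probes: 24% of TC probes tested were called, and 15% once weighted to NP brightness. Median absolute log2 ratios were 0.05, 0.10 and 0.41 in the same order, and median SEs 0.0662, 0.0777 and 0.124. The dimmest members thus had small ratios with small errors, on a scale that the offset narrows.

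**Figure D3:**
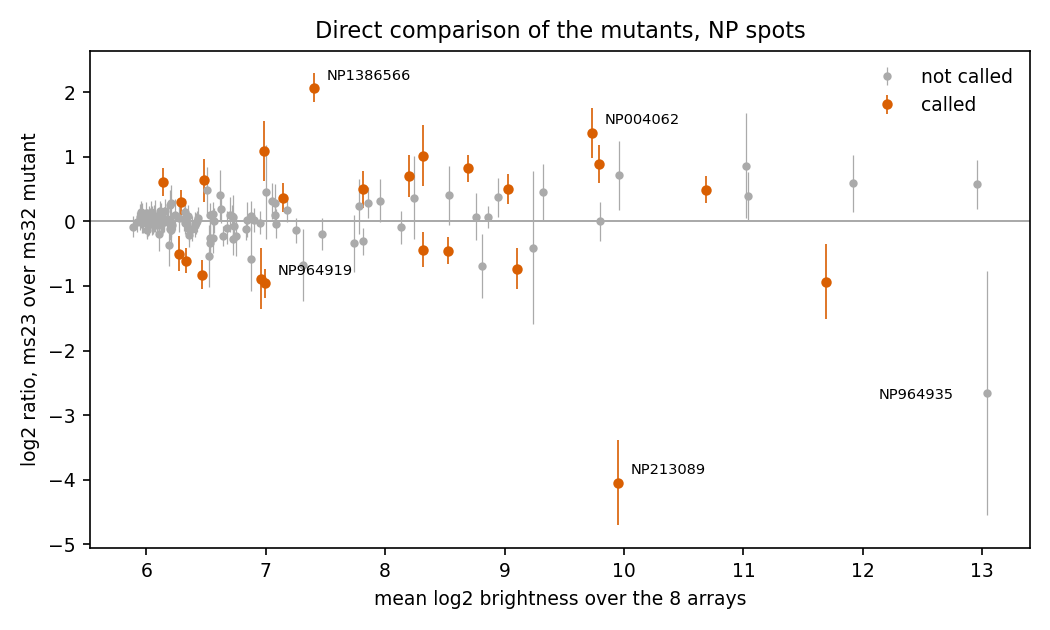
Log2 ratio of ms23 over ms32 mutants with its 95% interval (y axis) against mean log2 brightness over the 8 arrays (x axis) for the 148 NP probes tested. Coloured points are the 24 called members, from -4.05 for NP213089 to 2.06 for NP1386566; the brightest member, NP964935, was not called and has a wide interval.

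NP213089 was the member with the lowest ratio. Its log2 level in ms23 mutants had a lowest value of 7.16, a median of 7.92 and a highest of 9.25, and in ms32 mutants 11.53, 11.98 and 12.21. All 6 ms23 mutant samples lay below all 6 ms32 mutant samples. The fertile siblings stood with the mutants of their own family: 6.93 and 8.17 for ms23, 11.58 and 12.68 for ms32. The direct log2 ratios on the 4 arrays were -3.80, -4.37, -4.42 and -3.59, and the fitted ratio was -4.05 (SE 0.268, limma adjusted p = 3.9e-04). Within families it was not called, with log2 ratios of mutant over sibling of 0.92 for ms23 (limma adjusted p = 0.435) and -0.14 for ms32 (limma adjusted p = 1).

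NP1386566 had the highest ratio. Its log2 levels were 7.86, 8.37 and 9.11 (lowest, median and highest) in ms23 mutants and 6.09, 6.33 and 6.80 in ms32 mutants, without overlap. Siblings again followed the family, with 7.51 and 8.95 for ms23 and 6.50 and 6.65 for ms32. On the 4 arrays the log2 ratio was 2.44, 1.85, 1.97 and 2.00 (fitted 2.06, SE 0.0919, limma adjusted p = 1.05e-04).

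NP964919 was lower in ms23 mutants, at log2 levels of 6.15, 6.49 and 6.76 against 7.13, 7.47 and 7.71 in ms32 mutants. The groups did not overlap, and the fitted log2 ratio was -0.96 (SE 0.0907, limma adjusted p = 0.00152; 0.0679, and not called, with the deposited processed values). The siblings had 6.24 and 6.39 for ms23 and 7.67 and 7.81 for ms32, again on the side of their own mutants.

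NP004062 differed in kind. Its log2 levels were 9.54, 10.39 and 11.55 in ms23 mutants and 8.54, 9.19 and 10.13 in ms32 mutants, so the groups overlapped, although the ratio was positive on each of the 4 arrays (0.99, 1.1, 1.42 and 1.98; fitted 1.37, SE 0.158, limma adjusted p = 0.00299). Its siblings were at 9.67 and 9.76 for ms23 and at 8.67 and 9.19 for ms32.

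The standing of the siblings was counted for all called members. In 16 of the 24, or 66.7%, both ms23 siblings lay on the same side of both ms32 siblings as the ms23 mutants lay of the ms32 mutants. In 1 they lay on the opposite side, and in 7 the siblings of the families overlapped. Among all probes called in the direct comparison 63.0% showed the same-side pattern, and among all probes tested 34.9%, so the NP members were near the array as a whole. The siblings of each family were read on their own pair of arrays, and array and family cannot be told apart in these levels. None of the 24 was called against the siblings by limma. An unadjusted p under 0.05 was reached by 4 of the 24 for ms23 and by 2 for ms32. Over all probes tested, 11.6% and 7.82% reached it.

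**Figure D4:**
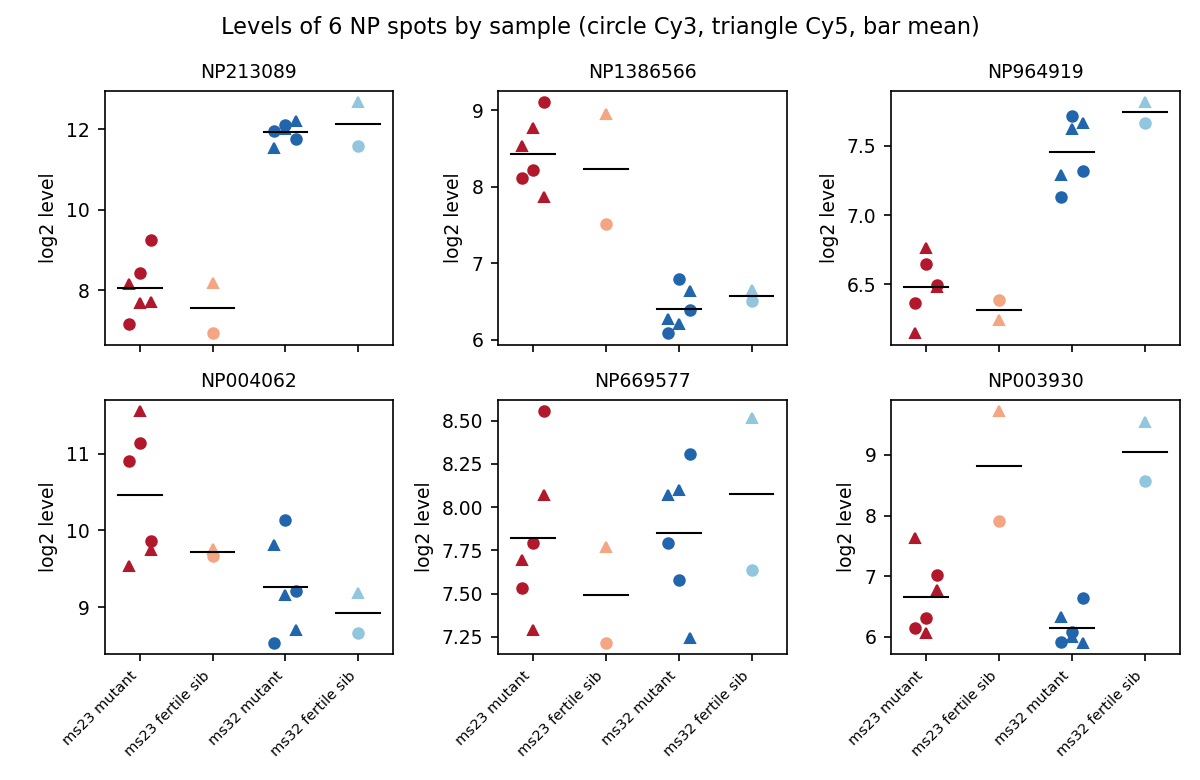
Log2 level (y axis, its own range in each panel) of 6 NP probes in the 16 samples by group (x axis); circles are Cy3 samples, triangles Cy5 samples and bars group means. For NP213089, NP1386566 and NP964919 the siblings stand with their family's mutants, whereas for NP003930 all 4 sibling samples, at 7.91 to 9.72, lie above all 12 mutant samples.

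The brightest member, NP964935, was far from uniform among ms23 mutants. Its log2 levels there were 8.76 and 10.09 in replicate 1, 11.81 and 13.85 in replicate 2 and 13.94 and 14.05 in replicate 3, whereas the 6 ms32 mutant samples lay between 13.36 and 14. The siblings were at 12.39 and 13.21 for ms23 and at 13.70 and 14.17 for ms32. Its direct log2 ratios of -3.39, -5.18, 0.14 and -2.19 gave a fitted value of -2.65 (SE 0.769, limma adjusted p = 0.0607), and it was not called. It passed the threshold under 7 of 24 other settings, with limma adjusted p from 0.0258 to 0.191 over all 24 and ratios from -3.6 to -1.81. The next brightest, NP224535, ranged from 12.11 to 13.63 over the 12 mutant samples (log2 ratio 0.57, limma adjusted p = 0.0503) and was not called either, but passed under 8 of 24 other settings.

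Set against the siblings of their family, ms23 mutants differed at 1 of 148 NP probes, or 0.676%, beside 1.31% of all probes and 0.882% of TC probes weighted to NP brightness (limma, n = 2 arrays). An unadjusted p under 0.05 was found for 9, or 6.08%, beside 11.6% of all probes and 8.24% of the weighted TC probes. Of these 9 members, 4 had positive and 5 negative ratios. The median absolute log2 ratio of the members was 0.08. Ratios of at least 2-fold were found for 2 members, neither of them called. That is 1.35%, beside 3.9% of all probes and 2.52% of the weighted TC probes. The median 95% interval was 0.57 wide on the log2 scale.

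The called member was NP669577. Its log2 levels in ms23 mutants were 7.29, 7.74 and 8.55, and in the siblings 7.22 and 7.77, so the groups overlapped. The mutants hybridised with the siblings were replicate 3, at 8.07 and 8.55, and they were above the sibling of the same array on both arrays, with log2 ratios of 0.86 and 0.79. The fitted log2 ratio was 0.82 (SE 0.120, 95% interval 0.53 to 1.11, limma adjusted p = 0.0435). The call was lost when dye-swapped arrays were averaged (limma adjusted p = 0.192) and in each of the 8 fits that left out 1 array, with limma adjusted p from 0.0508 to 0.45. In the ms32 family its ratio was -0.30 (limma adjusted p = 0.6254).

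Between ms32 mutants and their fertile siblings no NP probe was called by limma, beside 0.49% of all probes. An unadjusted p under 0.05 was found for 11, or 7.43%, beside 7.82% of all probes and 5.98% of TC probes weighted to NP brightness. All 11 ratios were negative, as were 62.3% of those of all probes under that p. The direction was not tested apart for the members. Over all members tested, 92 of the 148 log2 ratios were negative, with a median of -0.03 beside 0.00 for all probes.

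The lowest ratio in both families was that of NP003930. Its log2 levels were 7.91 and 9.72 in ms23 siblings and 8.57 and 9.54 in ms32 siblings, against 6.07, 6.54 and 7.63 in ms23 mutants and 5.91, 6.04 and 6.64 in ms32 mutants. All 4 sibling samples lay above all 12 mutant samples, which held for 2 of the 148 members tested and, over all probes tested, for 0.73%. The other member, NP159688, was dim and was picked out after its values were seen. It was detected in 2 of 6 samples of each mutant group and passed the filter through the siblings only. The filter thus favours the pattern counted, and nothing is concluded from the count. The log2 ratios of mutant over sibling of NP003930 were -1.15 and -2.70 on the ms23 arrays (fitted -1.92, limma adjusted p = 0.123) and -2.66 and -2.89 on the ms32 arrays (fitted -2.78, limma adjusted p = 0.0855). Neither passed the threshold, and the direct ratio of the mutants, 0.45, was not called either. It was detected in 11 of 12 mutant samples and in all 4 sibling samples.

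NP668090 had ratios of like size in both families, -0.57 (SE 0.106, limma adjusted p = 0.0850) for ms23 and -0.66 (SE 0.106, limma adjusted p = 0.104) for ms32. Its siblings, at log2 levels of 7.31 and 7.60 and of 7.48 and 8.07, overlapped the mutants of the ms23 family (6.62 to 7.61) and lay above those of the ms32 family (6.64 to 7.21). The highest ratio of the ms32 comparison, that of NP670588, was 0.66 (limma adjusted p = 0.670).

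The effects of the mutations were set against each other as the ms23 ratio minus the ms32 ratio. No NP probe was called by limma, beside 0.03% of all probes. An unadjusted p under 0.05 was found for 3, or 2.03%, beside 5.68% of all probes and 4.22% of TC probes weighted to NP brightness. NP669577 differed by 1.12 and NP004046 by 1.1 on the log2 scale, both with a limma adjusted p of 0.252. In NP004046 the ratio of mutant over sibling was 0.44 for ms23 and -0.66 for ms32. The median 95% interval of this difference was 0.80 wide.

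The 2 arrays of each dye swap were set against each other over the 148 members. Their log2 ratios correlated at 0.466 (Pearson) and 0.114 (Spearman) for ms23 against siblings and at 0.379 and 0.0337 for ms32 against siblings. The Pearson values of TC probes, not weighted to NP brightness, were 0.529 and 0.123. In the same order, the 2 arrays agreed in sign for 67 (45.3%) and 71 (48%) of the members. For TC probes the shares with the same sign were 54.8% and 44.8%. The dye swaps of the direct comparison gave 0.76 and 0.391 for replicate 1 and 0.725 and 0.597 for replicate 2, where TC probes had Pearson values of 0.645 and 0.794. Signs there agreed for 56.8% and 62.8% of the members and for 63.1% and 71.5% of TC probes. All these values are taken across probes, which share arrays, dyes and brightness and are not independent.

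Detection alone separated groups in 11 members, which were well above background in every sample of at least 1 group and in none of another. They made up 6.67% of the 165, beside 3.71% of all probes and 6.06% of TC probes weighted to NP brightness. They were dim, with a brightness of 6.02 to 6.34, and 2 of them were called in the direct comparison. NP003539 was detected in all 6 ms23 mutant and both ms23 sibling samples and in no sample of the ms32 family. Its log2 levels were 6.32, 6.41 and 6.60 in ms23 and 5.71, 5.91 and 6.05 in ms32 mutants. On the arrays of slide 1 it was 1.53-fold higher in ms23 mutants (limma adjusted p = 0.00647). With dye-swapped arrays averaged it was not called (limma adjusted p = 0.0619). Raising ms32 values to the lowest signal marked well above background, where that was higher, left their mean at 5.88. The 1.53-fold is thus the measured ratio and no lower bound. NP003539 passed the filter on dim probes through the ms23 groups only. Its ratio and p-value come from the signals that picked it, so they are no separate support for the split. In the other 10, a sibling group of 2 samples was on at least 1 side of the split. In NP004202, NP821125, NP666809, NP160227 and NP280779 it was on both sides. Those splits rest on 2 sibling samples against 2, each pair with 1 replicate number.

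The names carried by 2 probes allow a check within the members. Both NP1395955 probes, at a brightness of 6.74 and 6.42, had direct log2 ratios near 0 (-0.07 and -0.03). The NP538720 probes, at 6.73 and 7.96, had 0.07 and 0.32. None of the 4 was called in any comparison.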

How the data were processed

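RNA of 16 anther samples was measured on 8 two-colour arrays. The labels' protocols describe DNase treatment, linear amplification and dye labelling of total RNA, and the array design, 016047, and the software, Feature Extraction 10.5.1.1, are given per the file headers. The deposited scanner files hold, for every spot and dye, linear intensity values of spot and background as well as binary flags for saturation, outliers and signal well above background. A deposited table of processed intensity values was used as an alternative. Between 17.0% and 50.9% of the NP values of a column are listed at 0. Over all probes with values above 0, its log2 values correlate with the scanner software's signals at 0.969 to 0.981. The NP values at 0 are thus left out of that correlation. How the table was centred stays unknown.

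Median signals were used, since the files hold no mean spot signals. Calculations used limma 3.58.1, statmod 1.5.0 and R 4.3.3: normexp with an offset of 50, loess within arrays, 1417 control spots left out, and outlier spots (1322, none on NP probes) set to missing. Of 42034 probes, 39981 were tested, those detected in 50% or more of some group's samples; 2053 were not. The model held the 3 direct ratios, a dye term and arrays with the same replicate numbers as a random block, whose correlation of -0.277 was replaced by 0. Benjamini-Hochberg adjustment covered all probes, with a threshold of 0.05. Residual degrees of freedom were 4 and prior ones 1.95; the number of arrays limits the precision. The fit was tested on simulated data. Levels are log2 signals per dye after loess and Aquantile scaling. TC probes were weighted to the NP probes over 10 brightness bins. Same-numbered mutant samples deviated together (correlations of 0.516, 0.561 and 0.211); numbers 1 and 2 share arrays.

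The members, lists and rules were chosen with earlier results of these data known. Named members are the called ones, the extremes of each comparison, the brightest, those detected in all samples of one group and none of another, and names on 2 probes; since the files do not pair names with genes, at most 2 rising and 2 falling members are described per comparison. Keyword lists and further tissue markers could not be applied for the same reason. Alternatives changed the background, scaling, filter, dye term, block and arrays used.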

Additional observations from a re-analysis of the deposited data

Results flagged for a closer look

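Of 91 groups of values examined with Dixon's test, 4 held a value set apart from the others, and chance alone gives about 1 in 20; the 6 samples of a mutant group are 3 replicate numbers in both dyes, which the test takes as separate. The share of NP probes detected was 89.7% in the Cy5 sample of ms32 mutant replicate 2, with the next at 76.97%. The log2 level of NP004683 was 7.561 in the Cy5 sample of ms23 mutant replicate 1, with the next at 8.671. The log2 level of NP671704 was 9.85 in the Cy3 sample of ms32 mutant replicate 1, with the next at 9.431. The direct log2 ratio of the brighter NP538720 probe was -0.1536 on array 1 of slide 1, with the next at 0.4237.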

How the results depend on the processing

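In the ms23 family, the 1 call among NP probes became 0 with processed signals, median centring, dye-swapped arrays averaged (replicate block), a dye term per slide, 1 slide alone and each of the 8 fits without 1 array (0 to 0), and 2 with the deposited processed values; the cause was not tested. Over all probes, the 525 ms23 calls became 498 with processed signals, 762 with median centring and 34 with averaging. They became 366 with a dye term per slide, 0 with 1 slide alone and 339 with the deposited processed values. Without 1 array they were 48 to 531. For the direct comparison, averaging gave 12 calls and leaving out 1 array 14 to 22, against 24. Averaging leaves fewer replicates, and over all probes it gave 4391 calls, against 8227. The other settings, apart from the one in the next paragraph, gave 17 to 31. The ms32 comparison and the difference of effects had no NP call under any of these settings; without 1 array they gave 0 to 0. Omitting the replicate block changed no count, since its correlation was already 0.

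A block whose correlation was estimated on unturned Cy5 over Cy3 ratios (0.277) was run first, and was replaced by the turned ratios after its calls had been seen, because a shared sample moves unturned dye-swapped ratios in opposite ways; it is thus a setting added after seeing the data. It gave 3 NP calls for ms23 against sibling, 2 for ms32 against sibling, 41 for the direct comparison and 0 for the difference. Calls over all probes rose as well. They went from 525 to 1410 for ms23 against sibling, from 196 to 431 for ms32 against sibling and from 8227 to 11842 directly. NP003930 was then called in both families (limma adjusted p = 0.0435 and 0.0269), and NP964935 in the direct comparison (limma adjusted p = 0.0403).

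With detection read as processed signal above the lowest of probes well above background, group means became 99.8% and 99.7% in ms23 and ms32 mutants and 100% and 98.79% in their siblings. So low a floor lets nearly all members through and says little of their detection. Brightness from processed signals moved the weighted TC share of ms32 siblings to 71.26%. Of 1032 alternative values, from 43 results of called, extreme or otherwise described members under 24 settings each, 961 kept direction and side of the threshold, 45 lost and 19 gained a call, and 7 reversed, none of them of a called result. In the ms32 comparison, NP671661 (0.48) was -0.21 without array 2 of slide 2 and 1.18 without array 1, and NP213089 (-0.14) ran from -1.01 to 0.72 without 1 array. In the direct comparison, the dimmer probe of NP1395955 (-0.03) was 0.14 with median centring and from -0.07 to 0.01 without 1 array; the dimmer probe of NP538720 (0.07) was -0.25 with processed signals and from -0.08 to 0.22 without 1 array. With 2 arrays per comparison with siblings and signals near background, small changes of NP probes may go undetected.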
